A study of Homo sapiens with 4 samples.

Results

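AP-1 is a family of transcription factors, each a pair of basic leucine zipper (bZIP) proteins. The genes described here are its 9 listed subunits, JUN, JUNB, JUND, FOS, FOSB, FOSL1, FOSL2, BATF and BATF3. They were chosen by gene family, with the rapamycin-minus-control differences of these same arrays already known, so their values are given as a description without p-values. Each was found by its Entrez gene number, and all 9 matched 1 probe set each, out of 24241 named genes and 25582 probe sets.

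The arrays came from MOLM-14, a human acute myeloid leukemia cell line with an activating internal tandem duplication of the receptor kinase FLT3. The groups were 2 arrays of cells given 10 nM rapamycin for 24 hours and 2 arrays of untreated control cells. Rapamycin, bound to FKBP12, inhibits the growth kinase complex mTORC1. The culture protocols attached to all 4 samples describe cells with a doxycycline-inducible hairpin RNA, scrambled or against Pim2, kept for 72 hours in 200 ng/ml doxycycline and 10% fetal bovine serum. The labels do not say which hairpin an array's cells carried, or whether the protocol applies to these arrays at all. The series text calls the arrays biological replicates of a single line, and separate cultures are not described further, so p-values reflect variation among the 4 arrays, part of which may be technical.

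The values were log2 expression units, deposited as 1 value per probe set and array. Array medians were 5.43 and 5.45 with rapamycin, against 5.44 and 5.38 in control cells. Of 12 myeloid and leukemic marker genes, 9 were matched, and each of these 9 lay above the filter minimum of 4.86 log2 units, with means over the 4 arrays of 6.62 to 11.8. Of the T-cell, erythroid, B-cell and epithelial markers, 0 of 3, 0 of 2, 1 of 2 and 1 of 3 matched genes lay above it. The B-cell and epithelial genes above it were CD79A, at a mean of 5.51, and KRT19, at 5.88.

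JUN proteins can pair with themselves or with FOS proteins, whereas FOS proteins need a JUN partner to bind DNA. The pairs recognise the TRE, with the letters TGACTCA, and the related CRE, TGACGTCA. Growth factor, cytokine and stress signals raise AP-1 activity through the mitogen-activated protein kinases (MAPKs) ERK, JNK and p38, both by inducing the subunit genes and by phosphorylating the proteins. BATF proteins lack a transactivation domain, pair with JUN proteins, and in lymphoid and dendritic cells act together with IRF4 or IRF8.

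Promoter windows of 250 bases before and 50 bases after the transcription start were matched in RefSeq (GRCh38.p14) for 7 of the 9 subunits, and FOSL1 and BATF3 were not analysed here. A TRE, a CRE or a CArG box (the site of SRF), on either strand, was found in 2 of the 7 windows, those of JUND and FOSL2. JUN carries the variant site TGACATCA, a known AP-1 and ATF2 site of its own promoter, which was added to the search after the windows had been read. The windows of JUND, JUN and FOSL2 are shown because they hold these sites, in capitals and 5′ to 3′ on the strand of the gene. They lie at chr19:18281573-18281872 (minus strand), chr1:58783998-58784297 (minus strand) and chr2:28392608-28392907 (plus strand).
JUND: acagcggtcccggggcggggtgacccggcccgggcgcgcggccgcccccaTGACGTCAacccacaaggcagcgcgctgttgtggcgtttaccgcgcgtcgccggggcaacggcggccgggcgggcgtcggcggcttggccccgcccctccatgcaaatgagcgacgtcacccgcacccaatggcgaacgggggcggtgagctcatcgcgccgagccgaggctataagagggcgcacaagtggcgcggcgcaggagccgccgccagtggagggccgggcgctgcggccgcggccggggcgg
JUN: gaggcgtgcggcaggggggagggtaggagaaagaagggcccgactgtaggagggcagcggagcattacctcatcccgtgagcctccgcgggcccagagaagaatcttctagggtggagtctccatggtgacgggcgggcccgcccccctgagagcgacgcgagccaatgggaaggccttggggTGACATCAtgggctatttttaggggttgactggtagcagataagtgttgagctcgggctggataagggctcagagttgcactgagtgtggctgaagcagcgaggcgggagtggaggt
FOSL2: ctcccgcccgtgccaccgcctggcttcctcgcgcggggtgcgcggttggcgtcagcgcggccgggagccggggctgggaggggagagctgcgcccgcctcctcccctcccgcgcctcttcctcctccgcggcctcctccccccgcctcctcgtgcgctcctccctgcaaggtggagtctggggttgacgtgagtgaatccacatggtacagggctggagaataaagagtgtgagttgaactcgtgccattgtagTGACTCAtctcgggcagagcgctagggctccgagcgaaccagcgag

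With the start counted as position 1 and the base before it as -1, the CRE of JUND began at -200, the variant site of JUN at -67 and the TRE of FOSL2 at 5. Over all 35116 windows in the table, 4.95% held a TRE, 1.85% a CRE, 1.29% a CArG box and 2.61% the variant site. The motifs share no full match with each other. No match was found in the windows of JUNB, FOS, FOSB and BATF, which says only that these letters are absent from these 300 bases.

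**Figure D1:**
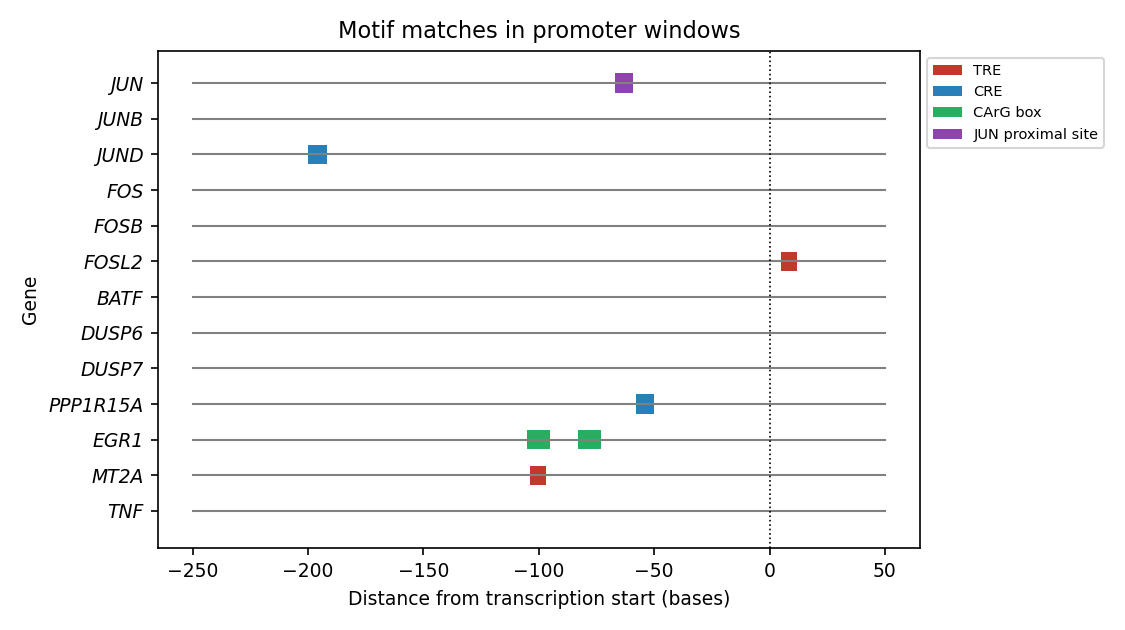
Motif matches in the promoter windows of the subunits and of the called genes around AP-1 that have a single window, by distance in bases from the transcription start (dotted line). Coloured boxes are matches: the CRE of JUND lies at -200, the variant site of JUN at -67, the TRE of FOSL2 at 5, and EGR1 has 2 CArG boxes.

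Among the JUN genes, JUND had the largest difference between the groups, JUN lay lower and overlapped, and JUNB lay slightly higher. JUND, the most steadily expressed JUN protein and a brake on proliferation in mouse fibroblasts, had 9.59 and 9.83 log2 units on the rapamycin arrays, against 9.10 and 9.06 on the control arrays. Both rapamycin values lay above both control values, and the gap between the groups exceeded the gap of 0.24 between the rapamycin arrays. The means were 9.71 ± 0.17 with rapamycin and 9.08 ± 0.03 in control cells (SD, n = 2 each), a log2 difference of 0.64 (SE 0.09), or 1.55-fold higher. The arrays read RNA of whole cultures, so more cells with the transcript and more transcript per cell cannot be told apart.

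JUN, the prototype subunit and a main substrate of JNK, gave 5.06 and 4.58 log2 units with rapamycin, against 4.98 and 5.55 in control cells. The groups overlapped, since the higher rapamycin array lay above the lower control array. The means were 4.82 ± 0.34 with rapamycin and 5.26 ± 0.40 in control cells (SD, n = 2 each), a log2 difference of -0.45 (SE 0.22). JUN also had the lowest margin over the filter, with a mean of 5.04 over the 4 arrays against the minimum of 4.86, and its rapamycin mean lay below that minimum. Its difference was -0.21 without rapamycin replicate 2 and -0.73 without control replicate 1, and without control replicate 2 it missed the filter.

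JUNB, whose loss in mouse myeloid cells leads to a myeloproliferative disease, had 8.58 and 8.57 log2 units with rapamycin, against 8.26 and 8.49 in control cells. Both rapamycin values were higher than both control values, but the control arrays differed by 0.22, more than the log2 difference of 0.20 (SE 0.10). Its means were 8.57 ± 0.00 with rapamycin and 8.38 ± 0.16 in control cells (SD, n = 2 each).

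**Figure D2:**
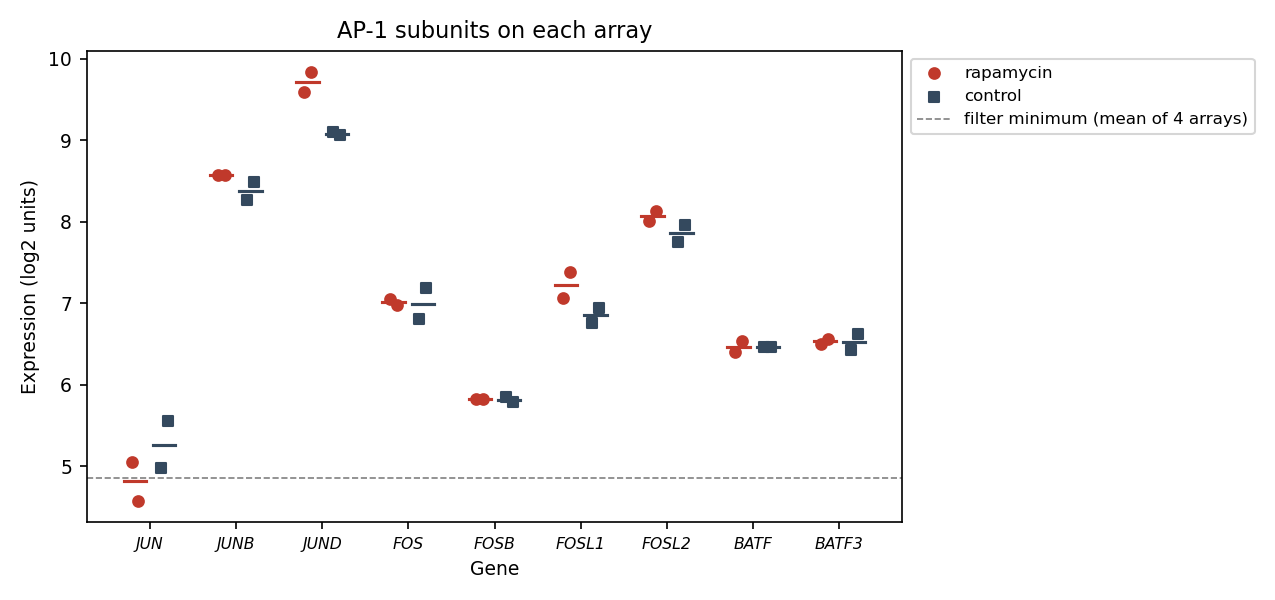
Expression of the 9 AP-1 subunits in log2 units on each array, with rapamycin (circles) left of control (squares), replicate 1 left of replicate 2, and a bar at each group mean. JUND lies at 9.59 and 9.83 with rapamycin and at 9.10 and 9.06 in control cells, while JUN overlaps between the groups close to the filter minimum (dashed).

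In the FOS family, FOS and FOSB overlapped between the groups, while FOSL1 and FOSL2 lay higher with rapamycin. FOS, the immediate early partner of JUN, had 7.05 and 6.98 log2 units with rapamycin, against 6.80 and 7.19 in control cells. Both rapamycin values lay inside the control range, with means of 7.01 ± 0.05 with rapamycin and 6.99 ± 0.27 in control cells (SD, n = 2 each) and a log2 difference of 0.02 (SE 0.14). FOSB, a close relative with splice forms that lack the transactivation domain, had 5.82 and 5.82 with rapamycin, against 5.85 and 5.78 in control cells. Here too the rapamycin values lay between the control values, with a log2 difference of 0.01 (SE 0.12). The array value does not separate FOSB splice forms.

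FOSL1 encodes Fra-1, which lacks the strong transactivation domain of FOS and whose protein is stabilised by ERK. It gave 7.06 and 7.38 log2 units with rapamycin, against 6.76 and 6.94 in control cells. Both rapamycin values were higher than both control values, while the rapamycin arrays differed from each other by 0.32. The means were 7.22 ± 0.22 with rapamycin and 6.85 ± 0.13 in control cells (SD, n = 2 each), a log2 difference of 0.37 (SE 0.13), or 1.29-fold higher. FOSL2 encodes Fra-2, the other Fra protein, and had 8.01 and 8.13 log2 units with rapamycin, against 7.75 and 7.96 in control cells. The groups did not overlap, but the lowest rapamycin value lay close above the highest control value. The means were 8.07 ± 0.08 with rapamycin and 7.86 ± 0.15 in control cells (SD, n = 2 each), a log2 difference of 0.21 (SE 0.10).

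The BATF genes showed log2 differences close to 0. BATF, which drives effector programmes in T and B cells with JUN partners, had 6.40 and 6.53 log2 units with rapamycin, against 6.46 and 6.46 in control cells. BATF3, which conventional type 1 dendritic cells of the mouse require, had 6.50 and 6.57 with rapamycin, against 6.43 and 6.63 in control cells. The groups overlapped for both genes, with log2 differences of 0.01 (SE 0.12) for BATF and 0.00 (SE 0.12) for BATF3. Over all genes tested the median half-width of a 95% interval of a log2 difference was 0.27, so smaller changes were mostly not detectable with these arrays. That interval is not adjusted for the number of genes. A call after such adjustment needed a still larger difference at the same precision.

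**Figure D3:**
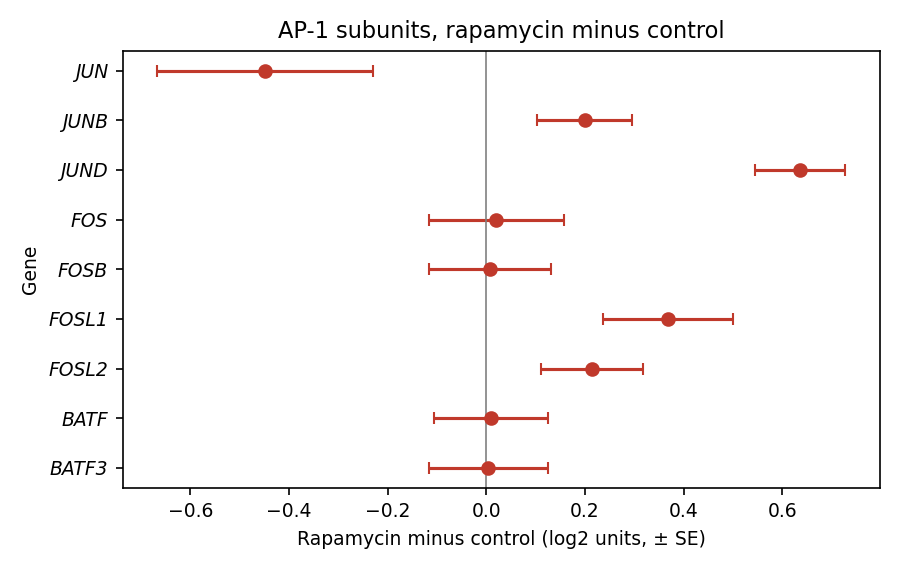
Rapamycin-minus-control differences of the 9 subunits in log2 units, with bars of 1 SE from the limma fit. JUND lies at 0.64, FOSL1 at 0.37 and JUN at -0.45, while FOS, FOSB, BATF and BATF3 lie between 0.00 and 0.02.

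All 9 subunits lay above the filter on low values and entered the fit of 14635 genes. In 4 of the 9 (JUNB, JUND, FOSL1 and FOSL2) both rapamycin arrays lay above both control arrays, in 0 both lay below, and in 5 the groups overlapped. Over all genes tested the groups stood apart upward in 24.9% and downward in 21.8%. The fit over all genes (limma with Benjamini-Hochberg adjustment, called at an adjusted p under 0.05) placed 1 of the 9, JUND, among the genes higher with rapamycin, where 1.28% of all genes were called, 0.417% upward and 0.861% downward. These counts are no test of the family, which was chosen with the differences known, and nothing is read from them. The median log2 difference was 0.02 for the 9 subunits and 0.01 for all genes tested. JUND was not called when the filter was dropped or the mean-variance trend was left out. Without rapamycin replicate 1, FOSL1 was called beside JUND, in a setting that called 8.88% of all genes.

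The subunits also differed in how well replicate arrays agreed. The rapamycin arrays differed by 0.48 for JUN, 0.32 for FOSL1 and 0.24 for JUND, against a median of 0.13 over all genes tested. The control arrays differed by 0.57 for JUN, 0.39 for FOS and 0.22 for JUNB, against a median of 0.09. In both groups the gap for JUN was beyond the 90th percentile of all genes, which was 0.34 with rapamycin and 0.28 in control cells. The signal of a probe set depends on its probes as well as on its transcript, so the levels of different subunits are not ranked.

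The genes whose pattern over the 4 arrays lay nearest to that of JUND were found by Euclidean distance between array values centred on each gene's mean. They were PCDHGC5, a gamma protocadherin (distance 0.01 log2 units), MIR370, whose probe set reads precursor or host RNA (0.05), the uncharacterised LOC101927550 (0.05) and ATP2A3, a calcium pump of the endoplasmic reticulum in blood cells (0.08). Protocadherin genes of the gamma cluster share their last exons, so the part of PCDHGC5 in its value is uncertain. PCDHGC5 had 6.99 and 7.22 log2 units with rapamycin, against 6.49 and 6.44 in control cells. LOC101927550 entered the fit only through its rapamycin arrays, as its control values of 4.64 and 4.59 lay below the filter minimum of 4.86. Neither LOC101927550 (limma adjusted p = 0.0953) nor ATP2A3 (0.0559) was called. PCDHGC5 (0.0408) and MIR370 (0.022) were called, but all of them were picked for their likeness to JUND. A nearness over 4 arrays in 2 groups is a description of these values.

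The genes around AP-1 were read from 7 lists of 113 genes, of which 103 were matched and 93 lay above the filter. Among them 4 rose and 4 fell by limma at an adjusted p under 0.05, beside 0.417% of all genes that rose and 0.861% that fell. The lists were drawn up with earlier results of these arrays known, so these counts are no test of the lists. Of the 4 that fell, MAP2K6 entered the fit only through its control arrays. The 8 were spread over 4 lists, covering kinases, phosphatases, other immediate early genes and targets. All 8 were called after a repeated quantile normalization (1.26% of all genes called), with the replicate block (2.19%), without rapamycin replicate 1 (8.88%) and without rapamycin replicate 2 (2.04%). Without control replicate 1, 6 of the 8 were called (1.07% of all genes), and without control replicate 2, 5 of the 8 (0.519%). When the filter was dropped, 4 of the 8 were called (DUSP6, PPP1R15A, TNF and MT2A), and 1 (MT2A) when the mean-variance trend was left out.

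**Figure D4:**
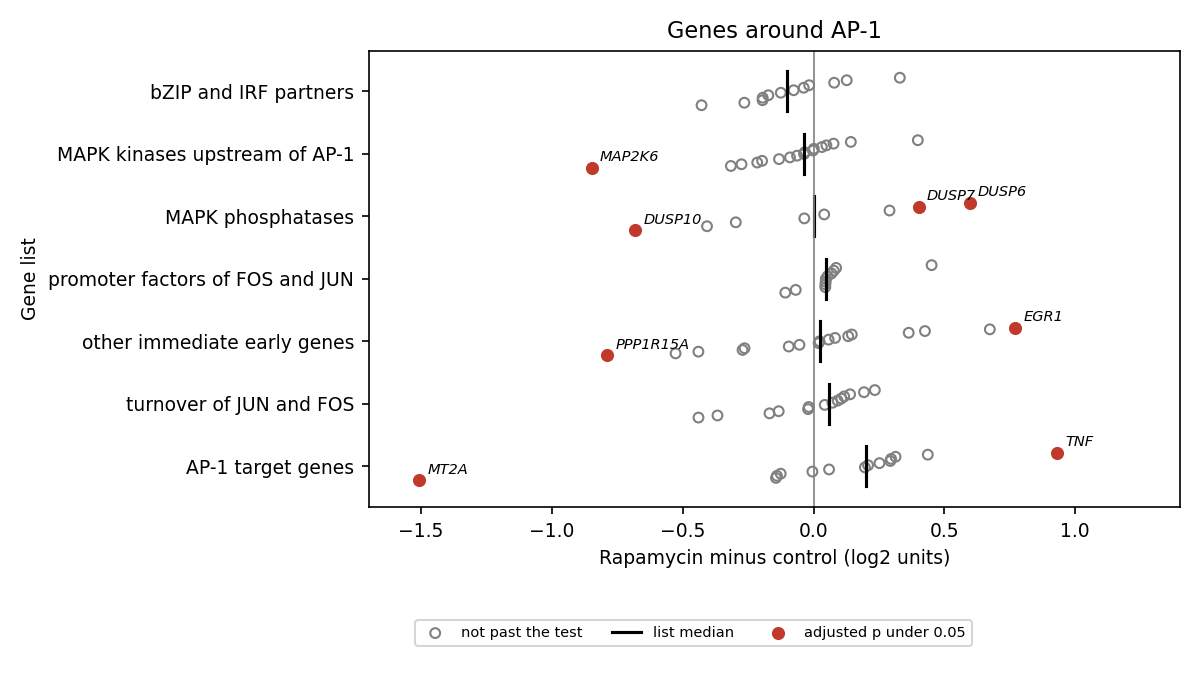
Rapamycin-minus-control differences in log2 units for the genes tested in 7 lists around AP-1, 1 circle per gene, with filled circles for genes past the limma test and a bar at each list's median. The 8 filled circles run from MT2A at -1.51 to TNF at 0.93.

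Among the bZIP and IRF partners, 0 of 12 tested genes passed limma, beside 1.28% of all genes called. At an unadjusted limma p under 0.05, which 15.4% of all genes met, 1 was higher and 3 lower. The median log2 difference was -0.10, against 0.01 for all genes. BATF2, the remaining BATF gene, had 4.95 and 4.53 log2 units with rapamycin, against 5.25 and 5.09 in control cells. Its rapamycin values were lower, with a log2 difference of -0.43 (SE 0.17, limma adjusted p = 0.271). BATF2 entered the fit only through its control arrays, as its means were 4.74 with rapamycin and 5.17 in control cells, around the minimum of 4.86. ATF2, a JNK and p38 substrate that pairs with JUN at CRE sites, had a log2 difference of -0.26 (SE 0.08, limma adjusted p = 0.164), and MAFG, a small MAF protein, one of 0.33 (SE 0.11, limma adjusted p = 0.177). Without rapamycin replicate 1, which leaves 1 array in that group, the log2 difference of ATF2 was -0.35. That of BATF2 was -0.64, on a single rapamycin value of 4.53 below the filter minimum, from which nothing is read.

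Of 17 tested kinases upstream of AP-1, 1 was called lower and 16 did not pass, with a list median of -0.04, beside 1.28% of all genes called. MAP2K6, which activates p38, gave 4.68 and 4.53 log2 units with rapamycin, against 5.42 and 5.49 in control cells. It entered the fit only through its control arrays, with a mean of 5.03 over the 4 arrays, and both rapamycin values lay below the minimum of 4.86. Its log2 difference of -0.85 (SE 0.14, limma adjusted p = 0.0264) therefore rests on rapamycin values in the range left out as low. It missed the threshold without control replicate 2 (limma adjusted p = 0.0856), and the filter at the 60th percentile left it out. RPS6KA1 (RSK1), an ERK-activated kinase, stood at 0.40 (SE 0.10, limma adjusted p = 0.0912). MAP3K1, which feeds JNK, stood at -0.32 (SE 0.07, limma adjusted p = 0.0753). Both passed with the replicate block (limma adjusted p = 0.0329 for RPS6KA1 and 0.0393 for MAP3K1), which called 2.19% of all genes. Neither passed in the other alternatives that kept all 4 arrays. With 1 array left out, RPS6KA1 ran from 0.29 to 0.50 and MAP3K1 from -0.39 to -0.24.

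MAPK phosphatases moved in both directions: of 8 tested, 2 rose, 1 fell and 5 did not pass, with a median of 0.00, beside 1.28% of all genes called. DUSP6, which dephosphorylates ERK in the cytoplasm, had 9.62 and 9.62 log2 units with rapamycin, against 9.04 and 9.003 in control cells. The arrays of each group lay within 0.04 of each other, and the log2 difference was 0.60 (SE 0.07, limma adjusted p = 0.00827), or 1.51-fold higher. DUSP7, a related ERK phosphatase, had 9.41 and 9.51 with rapamycin, against 9.07 and 9.04 in control cells, and rose by 0.40 (SE 0.08, limma adjusted p = 0.0462). DUSP10, which acts on JNK and p38, had 8.88 and 8.61 with rapamycin, against 9.33 and 9.53 in control cells. It fell by 0.68 on the log2 scale (SE 0.11, limma adjusted p = 0.0225), or 1.60-fold. DUSP7 lost its call without control replicate 1 (limma adjusted p = 0.174) or control replicate 2 (0.314) and with arrays centred on their medians (0.0564), and DUSP10 without control replicate 2 (0.0783).

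**Figure D5:**
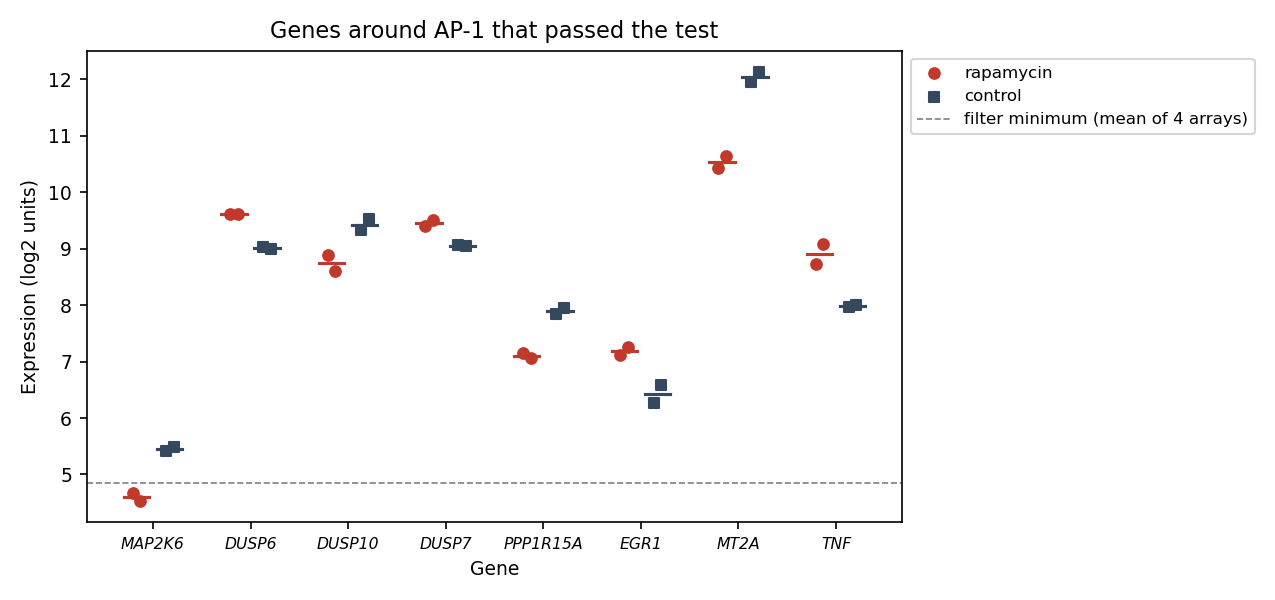
Expression in log2 units on each array of the 8 genes around AP-1 that passed the limma test, with rapamycin (circles) left of control (squares), replicate 1 left of replicate 2, and a bar at each group mean. The 8 were picked by that test on these same arrays, so the gaps between the groups are no further support. MAP2K6 lies below the filter minimum (dashed) with rapamycin at 4.68 and 4.53.

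The factors that act at the FOS and JUN promoters gave 0 called genes of 11 by limma, beside 1.28% of all genes called. At an unadjusted limma p under 0.05, which 15.4% of all genes met, 1 was higher. The list median was 0.05. ELK3, a partner of SRF, had 7.60 and 7.55 log2 units with rapamycin, against 7.15 and 7.10 in control cells. Its groups did not overlap, with a log2 difference of 0.45 (SE 0.10, limma adjusted p = 0.0634). Without rapamycin replicate 1 that difference was 0.42. STAT3 stood at -0.11 (SE 0.07, limma adjusted p = 0.539) and SP1 at 0.09 (SE 0.08, limma adjusted p = 0.672).

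Other immediate early genes, which growth signals induce together with FOS and JUNB, had 1 riser and 1 faller among 17 tested, beside 1.28% of all genes called, and a median of 0.02. EGR1, a zinc finger factor driven by SRF, had 7.12 and 7.26 log2 units with rapamycin, against 6.26 and 6.58 in control cells. The lowest rapamycin value exceeded the highest control value, and EGR1 rose by 0.77 (SE 0.13, limma adjusted p = 0.0337), or 1.71-fold. It lost its call without control replicate 1 (limma adjusted p = 0.0867). PPP1R15A (GADD34), which directs dephosphorylation of the initiation factor eIF2 alpha, had 7.14 and 7.07 with rapamycin, against 7.84 and 7.95 in control cells. It fell by 0.79 (SE 0.10, limma adjusted p = 0.00827), or 1.73-fold. IER3, a survival regulator, stood at 0.67 (SE 0.14, limma adjusted p = 0.0559). It passed with the replicate block (limma adjusted p = 0.0159), centred arrays (0.0204) and the stricter filter (0.0498). These settings called 2.19%, 2.17% and 2.21% of all genes. It did not pass with no filter (limma adjusted p = 0.127), without the trend (0.173) or after repeated quantile normalization (0.0666). With 1 array left out its difference ran from 0.46 to 0.88.

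Regulators of JUN and FOS turnover, ubiquitin ligase parts and RNA decay factors, gave 0 called genes of 14 by limma, beside 1.28% of all genes called. At an unadjusted limma p under 0.05, which 15.4% of all genes met, 2 were higher and 2 lower. The list median was 0.06. ZFP36L1, which promotes decay of AU-rich RNAs, stood at -0.44 (SE 0.15, limma adjusted p = 0.21). BTG1, which binds a deadenylase, stood at -0.37 (SE 0.09, limma adjusted p = 0.103), and DET1, a partner of the JUN ligase COP1, at 0.23 (SE 0.10, limma adjusted p = 0.297).

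Of 14 tested AP-1 target genes, 1 rose, 1 fell and 12 did not pass, beside 1.28% of all genes called, with a median of 0.20 against 0.01 for all genes. TNF, the inflammatory cytokine, had 8.73 and 9.09 log2 units with rapamycin, against 7.96 and 7.995 in control cells. The groups stood apart by more than the gap between the rapamycin arrays, and TNF rose by 0.93 (SE 0.12, limma adjusted p = 0.00827). MT2A, a metallothionein whose promoter was an early source of the AP-1 site, had 10.43 and 10.64 with rapamycin, against 11.96 and 12.13 in control cells. It fell by 1.51 (SE 0.09, limma adjusted p = 5.57e-05), or 2.84-fold. Metallothionein genes are nearly alike, so the share of MT2A in its value is uncertain. MMP9, a matrix protease, stood at 0.44 (SE 0.14, limma adjusted p = 0.186). These lists were drawn up with earlier results of the arrays known, TNF and MT2A among them.

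Of the 8 called genes around AP-1, 4 had a motif match: MT2A a TRE, PPP1R15A a CRE, EGR1 a pair of CArG boxes and DUSP10, in 1 of its 2 windows, the variant site of JUN. This count takes a match to any of the motifs, with the variant site added after windows had been read. The share of all windows with any of them was not computed, so the count has no background beside it. The windows of MAP2K6 (2 of them), DUSP6, DUSP7 and TNF held no match. The stretches around the sites are shown, again in capitals on the strand of the gene. The MT2A stretch lies at chr16:56608460-56608506, the PPP1R15A stretch at chr19:48872343-48872390 and the EGR1 stretch at chr5:138465354-138465425, all on the plus strand of GRCh38.p14. The DUSP10 stretch lies at chr1:221742295-221742339 on the minus strand.
MT2A: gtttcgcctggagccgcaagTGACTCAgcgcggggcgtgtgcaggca
PPP1R15A: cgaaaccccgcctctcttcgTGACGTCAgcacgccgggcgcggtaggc
EGR1: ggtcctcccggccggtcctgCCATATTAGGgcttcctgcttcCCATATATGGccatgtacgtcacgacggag
DUSP10: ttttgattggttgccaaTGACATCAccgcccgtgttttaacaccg

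The TRE of MT2A began at -104, the CRE of PPP1R15A at -58, the CArG boxes of EGR1 at -105 and -83, and the variant site of DUSP10 at -233. JUND, with the same CRE letters as PPP1R15A, was higher with rapamycin, while PPP1R15A fell. FOSL2 and MT2A share the TRE letters, with log2 differences of 0.21 for FOSL2 and -1.51 for MT2A. A match is a description of the letters and not a binding site shown by these data. Whether any of these sites bears on the differences was not tested.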

How the data were processed

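Expression was measured in 2 rapamycin and 2 control samples of MOLM-14 cells on single-channel arrays. The authors deposited a log2 expression value for each probe set on each array. The submitters' processing notes name RMA and Partek, with no version or order. That the scale is log2 was inferred from the range of the values, 1.81 to 13.3. The genome build of the probe sets is not given in the sources used here. Biotin-labelled DNA made from amplified total RNA was hybridised, per the labels' protocols.

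Platform annotation gave 1 symbol to 24244 of 25582 probe sets and none to 1338. Probe sets with a mean over the 4 arrays under the 40th percentile (4.86) were left out, and the probe set with the highest mean stood for a symbol. This left 14635 genes. The test was limma 3.58.1 (R 4.3.3) with group as the single term, eBayes with a mean-variance trend, two-sided tests and Benjamini-Hochberg adjustment, called under 0.05. Residual degrees of freedom were 2 a gene, with 7.27 added by moderation. The median SE was 0.12, and the number of arrays limits the precision. The code was tested on simulated data.

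The subunits, lists and tests were chosen with earlier results of these data known. Besides the subunits, the genes named are the called genes of each list, filled up to 3 by size of difference, and the 4 genes nearest to the subunit with the largest difference. Same-numbered arrays did not deviate together (r = -0.03 over genes), so the replicate numbers were not taken as pairs. Promoter windows came from RefSeq (GRCh38.p14) and were searched on both strands. The planned comparison of bZIP protein sequences was not made. Alternatives were the filter, the trend, the replicate block, the normalization, the summary of probe sets and each array left out. Background correction was not varied.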

Additional observations from a re-analysis of the deposited data

How the results depend on the processing

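With 2 arrays a group, the calls depended on the filter, the mean-variance trend and single arrays. Over all genes, 187 were called as reported, 60 with no filter, 17 without the trend, 321 with the replicate block and 317 with each array centred on its median, and 76 to 1300 without 1 array. The subunit count was 1 as reported, 0 with no filter or without the trend, and 1 to 2 without 1 array (JUND, and FOSL1 without rapamycin replicate 1). Called kinases numbered 1 as reported, 0 with no filter, at the 60th percentile or without the trend, 3 with the replicate block and 0 to 3 without 1 array. Called phosphatases numbered 3, then 1 with no filter, 0 without the trend and 1 to 4 without 1 array. Other immediate early genes numbered 2, then 1 with no filter, 0 without the trend, 4 with centred arrays and 1 to 5 without 1 array. Targets numbered 2, then 1 without the trend and 2 to 4 without 1 array. Without 1 array, called partners ran from 0 to 3, promoter factors from 0 to 1 and turnover genes from 0 to 0. Fits without 1 array assume that the lone array varies like the other group. The replicate block changed the calls of RPS6KA1, MAP3K1 and IER3 among the genes named.

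The differences of JUNB, JUND, FOSL1 and FOSL2 kept their sign in 11 of 11 alternatives, and that of JUN in the 9 that tested it. Most of these outcomes were fixed in advance. The filter, the trend, the replicate block and the mean of probe sets left each tested difference unchanged. For JUNB, JUND, FOSL1 and FOSL2, whose groups did not overlap, leaving out 1 array could not turn the sign either. Only repeated normalization and centred arrays could have done so. JUND ran from 0.52 to 0.76, FOSL1 from 0.21 to 0.53, JUNB from 0.09 to 0.31 and FOSL2 from 0.11 to 0.32. FOS ran from -0.17 to 0.21, with the reported sign in 7 of 11, the unchanged ones among them. FOSB, BATF and BATF3, between -0.09 and 0.10, also turned sign. The cause of these changes was not tested.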

Other observations

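Of the 19 AP-1 target genes matched, 5 lay below the filter on low values, among them CXCL8 and IL1B, named here after their values were seen. They were fitted only in the alternative with no filter, which called 0.248% of all genes. IL1B, a cytokine of inflammatory monocytes, had 4.91 and 5.05 log2 units with rapamycin, against 4.04 and 4.16 in control cells. Its groups did not overlap, but its mean over the 4 arrays was under the filter minimum of 4.86. With no filter its log2 difference was 0.88 (SE 0.14, limma adjusted p = 0.064), which did not pass. CXCL8, a neutrophil chemokine, had 4.06 and 4.15 with rapamycin, against 4.26 and 4.06 in control cells, and its groups overlapped (limma adjusted p = 0.938 with no filter).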
